A study of Homo sapiens with 6 samples.

Results

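Complement genes were followed in MRC5 lung fibroblasts through 9 genes picked by symbol, the components *C1R*, *C1S*, *C3*, *C7*, *CFB* and *CFD* and the regulators *CFI*, *SERPING1* and *CLU*. They are 9 of the 58676 gene identifiers in the count table, of which 19072 had at least 10 counts summed over all libraries. Among the 9 genes, 7 passed that minimum. *CFI*, with 52 counts in all, was the lowest gene inside it, whereas *CFD* with 7 counts and *CFB* with 0 counts were outside. The genes were chosen with their fold changes between the groups below already known, so their differences are given as descriptions, with a standard error (SE) and without a p value.

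MRC5 is an established line of human fetal lung fibroblasts, and every library came from this 1 line. The fibroblasts were kept for 24 h in conditioned medium (CM) from an alveolar type II (ATII) epithelial cell line that carries a fusion protein with an estrogen receptor domain, which the drug 4-hydroxytamoxifen (4-OHT) switches on. The control ATII CM group (3 libraries) received CM from such cells without 4-OHT, and the 4-OHT ATII CM group (3 libraries) received CM taken from such cells after 24 h of 4-OHT. The comparison asks how fibroblast RNA levels differ after exposure to factors released by epithelial cells in which the fusion was active. The medium-producing cells of both groups carry the fusion. Whether 4-OHT itself remained in the CM is not given in the sources used here, so an effect of carried-over drug and one of factors induced by the fusion cannot be told apart. Nothing in the labels says that the libraries came from separate cultures, so p values measure the spread between these libraries, which may be technical.

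Complement is a cascade of plasma proteins that cut each other in turn and mark surfaces for uptake or lysis. In the classical pathway the proteases C1r and C1s, held in the C1 complex, cut C4 and C2, which leads to cleavage of the central component C3 and to assembly of the terminal components into a membrane pore. The liver makes most circulating complement, and fibroblasts are a well known local source of C1r, C1s and C1 inhibitor, whose genes respond to inflammatory cytokines in many cell types.

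Library totals ranged from 17691849 to 26389449 counts. Each level is in CPM, the share of a library's counts that fell on the gene, with the library total corrected for differences in composition by a TMM factor. All 9 fibroblast markers were measured, at summed levels of 36410 to 39710 CPM in control ATII CM, against 37580 to 39100 CPM in 4-OHT ATII CM. *COL1A1* and *COL1A2* made up most of that sum, and neither passed the test in edgeR, though *COL1A1* was called in 5 of 14 alternative analyses and *COL1A2* in 1. Of the 9 markers 3 rose by edgeR, namely *DCN* (log2 fold change 0.33, adjusted p = 2.66e-06), *LUM* (0.29, adjusted p = 3.99e-05) and *PDGFRA* (0.22, adjusted p = 0.00343), each also called in all 14 alternatives, and *VIM* fell (−0.10, adjusted p = 0.0414), called in 8 of the 14. Of 9 epithelial markers 4 reached 10 counts, mostly keratins, at 90.4 to 96.7 CPM against 88.5 to 94.6 CPM, with *KRT5* and *NKX2-1* at 0. Leukocyte and macrophage markers summed to 0.656–1.01 CPM in control ATII CM, against 1.14–1.94 CPM in 4-OHT ATII CM, with *CD14* alone of 6 at 10 counts or more and *AIF1* at 0. Of 4 endothelial markers 1 reached 10 counts, at summed levels of 0.328–0.560 and 0.228–0.521 CPM, with *PECAM1* and *CDH5* at 0. None of 5 hepatocyte markers did, with sums of at most 0.0441 CPM in control ATII CM, against 0.0761 to 0.2005 CPM in 4-OHT ATII CM, and *TTR* and *FGB* at 0. These hepatocyte sums rest on 8 counts of *APOA1*, 2 of *ALB* and 1 of *AHSG* over all libraries. In bulk RNA, fewer cells that express a gene and less of its RNA per cell cannot be told apart.

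*C1S* and *C1R*, the classical pathway protease pair, took the most counts of the 9 genes and both were higher in 4-OHT ATII CM. *C1S* (ENSG00000182326, GRCh38 chr12:6988259-7071032, plus strand) stood at 931.0, 908.2 and 938.8 CPM in the control ATII CM libraries and at 1177, 1173 and 1167 CPM in the 4-OHT ATII CM libraries. The 4-OHT ATII CM libraries lay close together and all above the controls, with means of 926 ± 15.9 and 1172 ± 5.49 CPM (SD, n = 3 each) and a log2 fold change of 0.34 (SE 0.0268). *C1R* (ENSG00000159403, chr12:7080199-7092607, minus strand), which cuts and activates C1s, stood at 653.9, 664.5 and 692.6 CPM in control ATII CM, against 841.3, 868.5 and 853.1 CPM in 4-OHT ATII CM. The groups again did not overlap, and the means of 670.3 ± 20.0 and 854 ± 13.7 CPM (SD, n = 3 each) gave a log2 fold change of 0.35 (SE 0.0304). In percent, *C1R* was higher by 27.4% and *C1S* by 26.6%. The 9 fibroblast markers differed both ways, from −6.71% for *VIM* to 25.7% for *DCN*, with 6 higher and 3 lower, and their part in the *C1R* and *C1S* differences was not tested.

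The *C1R* to *C1S* ratio, taken per kilobase of exon, kept to a narrow range across all 6 libraries. Exon length here and below is the merged length of a gene's annotated exons, not that of the transcripts expressed, so the size of ratios between genes depends on it. It was 0.771, 0.803 and 0.810 in control ATII CM, against 0.785, 0.813 and 0.803 in 4-OHT ATII CM. The means were 0.795 ± 0.0208 and 0.800 ± 0.0144 (SD, n = 3 each), and the groups overlapped. The genes lie side by side and are read toward each other. *C1R* shares 672 bases of exon, 11.4% of its exon length, with *C1RL* on the same strand, and *C1S* shares 229 bases (3.54%) with *EMG1* on the same strand, so reads from those stretches could not be assigned with certainty.

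**Figure D1:**
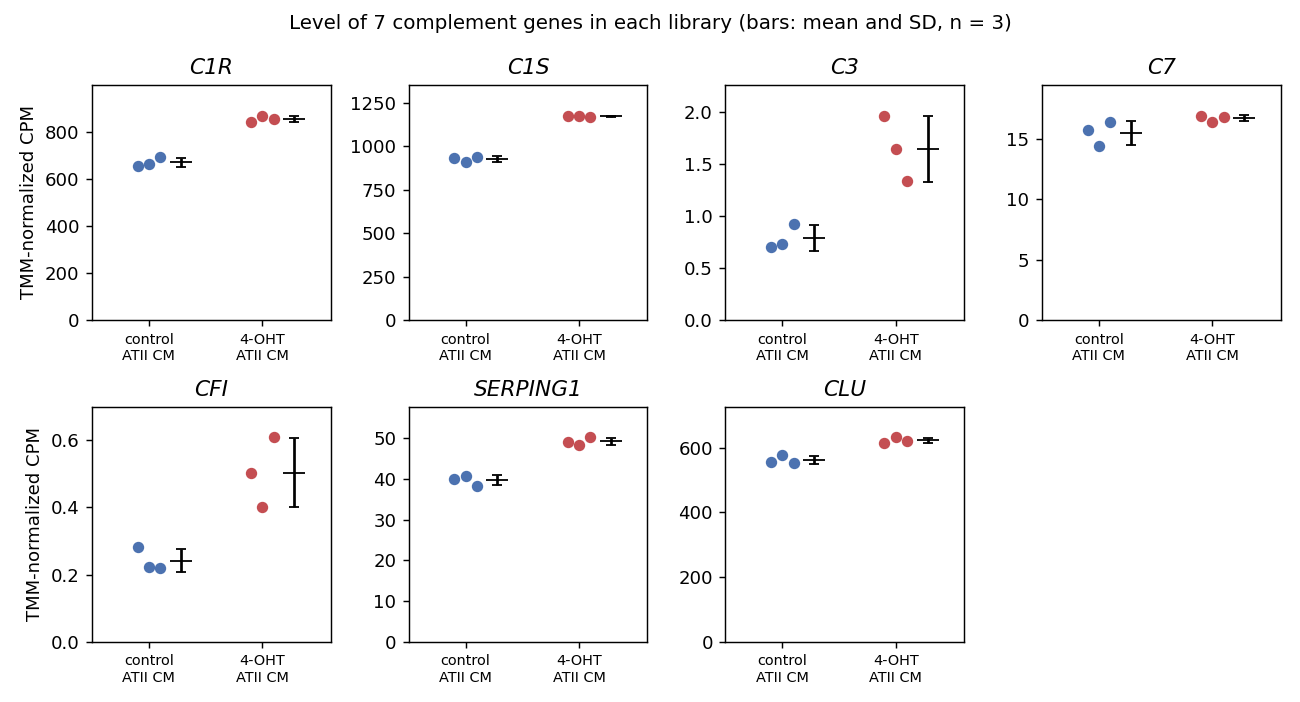
TMM-normalized CPM (y axis, from 0, a separate scale in each panel) of 7 complement genes in each library of control ATII CM (blue points) and 4-OHT ATII CM (red points), with the mean and SD of 3 libraries in black. The red points lie above the blue points in every panel, narrowly in *C7*, where the lowest red point is 16.4 CPM and the highest blue point 16.37 CPM, and the SD bars are widest relative to the mean in *CFI* and *C3*, which had few counts.

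Promoter windows of 300 bases, from 250 before to 50 after a transcript start, were taken from RefSeq on GRCh38.p14 for 5 of the 9 genes, namely *C1R* (with 2 starts), *C7*, *CFB*, *CFD* and *CFI*. For *C1S*, *C3*, *SERPING1* and *CLU* no window was available in the set used here. Windows were searched on both strands for the STAT dimer motif TTCNNNGAA, the C/EBP motif TTGCNNAA, the interferon response motif and the NF-kB motif. Among 35116 RefSeq windows of the same length, 7.66% held the STAT dimer motif, 10.5% the C/EBP motif, 3.57% the interferon response motif and 5.91% the NF-kB motif. The windows of *C1R*, the most strongly expressed gene with a window, are shown beside those of its neighbour *C1RL*, which also rose, and of *C7*, whose level differed little. Each reads 5′ to 3′ on the strand of its gene, and capitals mark the matches.
*C1R*, chr12:7092396-7092695, minus strand: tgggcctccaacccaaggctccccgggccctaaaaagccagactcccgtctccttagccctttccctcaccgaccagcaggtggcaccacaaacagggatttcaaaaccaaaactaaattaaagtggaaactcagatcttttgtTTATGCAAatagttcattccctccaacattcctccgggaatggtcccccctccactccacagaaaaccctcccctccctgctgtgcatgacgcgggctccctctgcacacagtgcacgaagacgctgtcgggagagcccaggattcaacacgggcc
*C1R*, second start, chr12:7091844-7092143, minus strand: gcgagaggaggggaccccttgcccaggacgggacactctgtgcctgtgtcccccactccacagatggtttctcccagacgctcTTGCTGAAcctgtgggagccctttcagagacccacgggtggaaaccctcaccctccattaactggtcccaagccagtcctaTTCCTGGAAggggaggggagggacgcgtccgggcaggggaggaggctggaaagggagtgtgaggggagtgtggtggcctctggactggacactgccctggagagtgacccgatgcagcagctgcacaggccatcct
*C1RL*, chr12:7109165-7109464, minus strand: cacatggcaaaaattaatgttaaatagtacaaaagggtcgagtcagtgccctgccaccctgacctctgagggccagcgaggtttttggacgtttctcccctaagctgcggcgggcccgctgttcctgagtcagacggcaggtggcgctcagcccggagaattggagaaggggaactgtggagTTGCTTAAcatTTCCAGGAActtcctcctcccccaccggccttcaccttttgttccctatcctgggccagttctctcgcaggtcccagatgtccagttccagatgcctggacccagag
*C7*, chr5:40909247-40909546, plus strand: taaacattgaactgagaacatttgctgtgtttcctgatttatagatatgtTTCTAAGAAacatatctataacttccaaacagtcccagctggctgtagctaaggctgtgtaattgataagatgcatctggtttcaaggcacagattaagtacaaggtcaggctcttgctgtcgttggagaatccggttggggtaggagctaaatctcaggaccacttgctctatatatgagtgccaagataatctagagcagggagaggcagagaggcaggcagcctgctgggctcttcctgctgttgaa
In the first *C1R* window a C/EBP match on the opposite strand began at position −106 from the start, and in the second a STAT dimer match began at −86 and a C/EBP match at −167. The *C1RL* window held a STAT dimer match at −57 and a C/EBP match at −68, and the *C7* window a STAT dimer match at −200. The *CFB* window (chr6:31945845-31946144) held a STAT dimer match at −92 and an interferon response match on the opposite strand at −140, and the *CFD* and *CFI* windows held no match to the motifs searched. A match describes letters in the window and is no evidence of binding.

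*SERPING1* (ENSG00000149131, chr11:57597387-57614853, plus strand) encodes C1 inhibitor, the serpin that inactivates C1r and C1s. Its level was 39.96, 40.76 and 38.26 CPM in control ATII CM, against 49.06, 48.28 and 50.18 CPM in 4-OHT ATII CM. Every 4-OHT ATII CM library exceeded every control library, the means were 39.7 ± 1.28 and 49.2 ± 0.956 CPM (SD, n = 3 each), and the log2 fold change was 0.31 (SE 0.0441). Per kilobase of merged exon *C1S* exceeded its inhibitor by 13.03 ± 0.631 times in control ATII CM and by 13.3 ± 0.304 times in 4-OHT ATII CM (SD, n = 3 each). That ratio was 12.99, 12.42 and 13.68 in the control libraries and 13.38, 13.55 and 12.96 in the 4-OHT ATII CM libraries, so the groups overlapped.

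*CLU* encodes clusterin, a secreted chaperone that binds terminal complexes and hinders pore formation. *CLU* (ENSG00000120885, chr8:27596917-27615031, minus strand) stood at 554.8, 576.1 and 553.9 CPM in control ATII CM, against 614.8, 631.7 and 621.7 CPM in 4-OHT ATII CM. The groups were apart, but by less in relative terms than those of *SERPING1*, with means of 562 ± 12.6 and 623 ± 8.51 CPM (SD, n = 3 each) and a log2 fold change of 0.15 (SE 0.0298). *CFI* (ENSG00000205403, chr4:109740694-109802179, minus strand) encodes factor I, the protease that destroys C3b and C4b. It had 6, 4 and 5 counts in the control ATII CM libraries and 11, 10 and 16 counts in the 4-OHT ATII CM libraries. Although the counts did not overlap, the levels of 0.242 ± 0.0340 and 0.504 ± 0.104 CPM (SD, n = 3 each) were near the limit of the depth, and the log2 fold change of 1.04 had an SE of 0.416. Of the *CFI* exon length, 32.0% is shared on the same strand with the unnamed gene ENSG00000285330, which had 0 counts.

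*C3* (ENSG00000125730, chr19:6677704-6730562, minus strand), the component on which all complement pathways converge, was low in these fibroblasts, with 15, 13 and 21 counts in control ATII CM, against 43, 41 and 35 counts in 4-OHT ATII CM. These are levels of 0.703, 0.728 and 0.927 CPM against 1.964, 1.644 and 1.332 CPM. The groups did not overlap, and the means of 0.786 ± 0.123 and 1.65 ± 0.316 CPM (SD, n = 3 each) gave a log2 fold change of 1.05 (SE 0.252). The summed leukocyte markers also did not overlap between the groups, but that sum is mostly *CD14*, alone of 6 at 10 counts or more. *CD14* missed the threshold (log2 fold change 0.97, edgeR adjusted p = 0.0597) but passed it in 3 of 13 alternatives. The part of *CD14* in the *C3* difference was not tested. *C7* (ENSG00000112936, chr5:40909252-40982939, plus strand), a terminal component that anchors the forming pore in membranes, differed least among the 7 genes. Its level was 15.7, 14.39 and 16.37 CPM in control ATII CM, against 16.9, 16.4 and 16.78 CPM in 4-OHT ATII CM. The means of 15.5 ± 1.01 and 16.7 ± 0.260 CPM (SD, n = 3 each) differed by about the SD of the controls, with a log2 fold change of 0.10 (SE 0.0718).

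The alternative pathway proteases factor B and factor D, encoded by *CFB* (ENSG00000243649, chr6:31945650-31952084) and *CFD* (ENSG00000197766, chr19:859643-863630), gave no usable level. *CFB* had 0 counts in every library, which allows a level of up to 0.0222 CPM over the 6 libraries together by counting error alone. Of its exon length, 45.0% is shared on the same strand with ENSG00000244255, which also had 0 counts. *CFD* had 1, 2 and 1 counts in control ATII CM, against 0, 2 and 1 counts in 4-OHT ATII CM. The 0 of *CFB* was shared by its surroundings. All 9 other protein-coding genes around it had fewer than 200 counts over the 6 libraries, and 7 of them fewer than 30, including the widely used *EHMT2* with 1 count, *DXO* with 0 and *NELFE* with 27. *CFB* and all 9 of these genes have a near-identical copy on an alternate contig of GRCh38 (at least 90% of the transcript at 98% identity). Around *CFD*, which also has such a copy, the other genes with a copy were *AZU1* and *PRTN3* with 0 counts, *ELANE* with 13 and *MED16* with 6038, and the 3 genes without a copy had between 1967 and 42456. How reads that match a gene and its copy were treated is not given in the sources used here, and the part of the copies in the low counts was not tested.

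**Figure D2:**
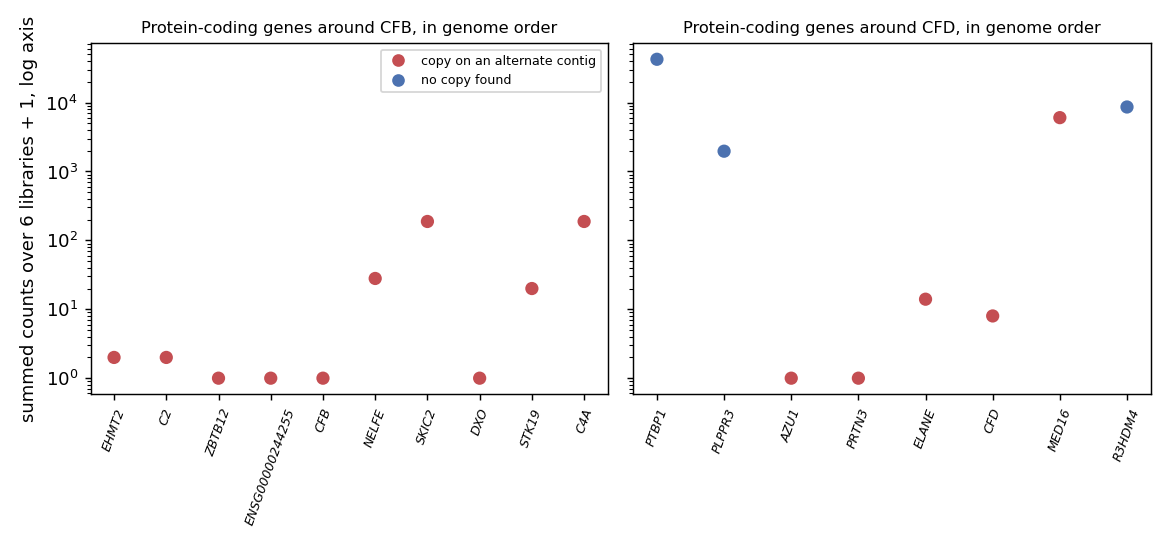
Summed counts over 6 libraries plus 1 (y axis, log scale) of the protein-coding genes around *CFB* and around *CFD*, in genome order, with genes that have a copy on an alternate contig in red and those without in blue. The genes around *CFB* all have a copy and all lie below 200 counts, whereas those around *CFD* range from 0 to 42456.

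By the threshold that edgeR's quasi-likelihood test sets for every gene (Benjamini-Hochberg adjusted p below 0.05), 563 of 19072 tested genes (2.95%) were called higher in 4-OHT ATII CM. Of the 7 genes, 5 were called higher, namely *C1R*, *C1S*, *C3*, *SERPING1* and *CLU*, and *C7* and *CFI* were not called. All 7 had 4-OHT ATII CM libraries wholly above the controls, as did 11.7% of all tested genes. Their median log2 fold change was 0.34, against −0.002 over all tested genes. The same contrast chose the genes, so nothing is read from these counts. Without 4-OHT ATII CM replicate 2 the calls fell to 3, with *C3* and *CLU* lost. Over all tested genes, calls in either direction fell from 1090 to 533 in that setting. *C3* was also not called without replicate 1 of either group, and *CLU* was also not called without control replicate 3.

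Summed over the 7 measured genes, the level was 2196, 2205 and 2241 CPM in control ATII CM, against 2702, 2740 and 2710 CPM in 4-OHT ATII CM. That is a gain of 503 CPM, from 2214 ± 23.8 to 2717 ± 20.0 CPM (SD, n = 3 each). In counts, which also grow with transcript length, *C1S* added 246 CPM, *C1R* 184 CPM and *CLU* 61.2 CPM, whereas *SERPING1* added 9.51 CPM and *C3* 0.861 CPM. *C1R*, *C1S* and *CLU* together made up between 97.4% and 97.6% of the sum in each library.

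To set genes side by side, levels were divided by merged exon length (CPM per kb). *C1S* was highest of the 9 genes in both groups, at 143 ± 2.46 in control ATII CM, against 181 ± 0.850 in 4-OHT ATII CM (SD, n = 3 each here and below). *C1R* followed at 114 ± 3.40 and 145 ± 2.32, and *CLU* at 84.9 ± 1.90 and 94.1 ± 1.29. A gap separated these from *SERPING1* at 11.01 ± 0.355 and 13.7 ± 0.265 and *C7* at 2.97 ± 0.193 and 3.20 ± 0.0498. *C3* at 0.0944 ± 0.0147 and 0.198 ± 0.0380 and *CFI* at 0.0496 ± 0.00697 and 0.103 ± 0.0213 were lowest. Within each group no neighbours in this order overlapped. Among 30 measured complement genes, ordered by the average of both group means, *C1S* ranked 2, *C1R* 3 and *CLU* 4, after the chaperone gene *CALR*. In that order *SERPING1* came at 11, *C7* at 14, *C3* at 22 and *CFI* at 25. Among all tested genes *C1S* lay above 98.9% and *CFI* above 9.86%.

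**Figure D3:**
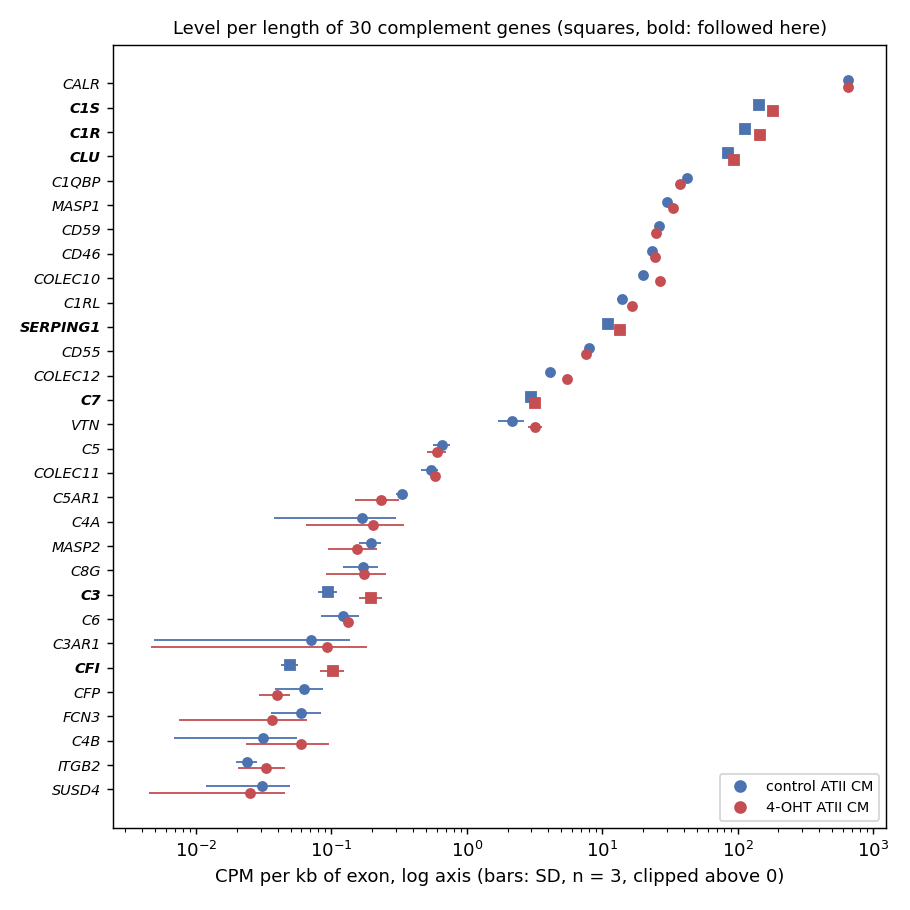
CPM per kilobase of exon (x axis, log scale) of the 30 measured complement genes, in order of the average of both group means. Shown are the mean and SD of 3 libraries in control ATII CM (blue) and 4-OHT ATII CM (red), with squares for the genes followed here and SD bars cut off near 0. *C1S*, *C1R* and *CLU* stand at ranks 2, 3 and 4 behind *CALR*, and *C3* and *CFI* lie at ranks 22 and 25.

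A list of 50 further complement genes, grouped by role, was tested in the same fit. Of these 18 had no count, 9 had fewer than 10 and 23 were tested. In 4-OHT ATII CM 5 rose (*COLEC10*, *COLEC12*, *C1RL*, *MASP1* and *VTN*), 1 fell (*C1QBP*) and 17 did not pass the test, beside 2.95% of all tested genes called higher and 2.76% called lower. Of the 23 genes, 13 had a log2 fold change above 0, beside 49.5% of all tested genes, and the median was 0.08 (−0.02 without 4-OHT ATII CM replicate 3, 0.03 without control replicate 1, 0.00 by limma-voom and 0.14 with no filter on low counts). Without 4-OHT ATII CM replicate 2 the genes called higher fell to 2, and without replicate 3 of that group to 3. Calls over all tested genes, in either direction, fell from 1090 to 533 and to 615 in these settings. The list was chosen with earlier results of these data known.

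Among initiators, which bind targets at the start of a pathway or steady its enzymes, 2 of 5 tested rose. *COLEC10* (chr8:118995452-119106582), a collectin of the lectin pathway, went from 31.95, 32.7 and 35.35 CPM in control ATII CM to 43.48, 45.15 and 44.51 CPM in 4-OHT ATII CM (log2 fold change 0.41, SE 0.0495, edgeR adjusted p = 0.000135). *COLEC12* (chr18:316740-500722), a scavenger receptor with a collectin-type domain, went from 31.58, 28.11 and 30.76 CPM to 39.33, 40.74 and 40.29 CPM (log2 fold change 0.41, SE 0.0522, edgeR adjusted p = 0.000209). In both genes all 4-OHT ATII CM libraries lay above all controls, and the call held in each of 14 alternative analyses.

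Among proteases and substrates 2 of 6 tested rose. *C1RL* (chr12:7089587-7109273), a C1r-like protease gene whose exons overlap those of *C1R* over 13.4% of its length, went from 74.03, 63.78 and 73.51 CPM to 80.71, 84.77 and 82.64 CPM (log2 fold change 0.23, SE 0.0506, edgeR adjusted p = 0.0127). *MASP1* (chr3:187217285-187292022), whose product starts the lectin pathway, went from 402.3, 389.7 and 398.7 CPM to 425.8, 447.8 and 441.6 CPM (log2 fold change 0.14, SE 0.0318, edgeR adjusted p = 0.0127). *C1RL* was not called without 4-OHT ATII CM replicate 2 (edgeR adjusted p = 0.0787), and *MASP1* was not called without control replicate 3 (0.0554) or 4-OHT ATII CM replicate 2 (0.0853) or 3 (0.0869). *C4A*, the C1s substrate gene, had 4, 25 and 46 counts in control replicates 1, 2 and 3 and 10, 37 and 65 in those of 4-OHT ATII CM, so that same-numbered libraries were alike for this gene, and its reads could fall on the near-identical *C4B*. *C4A* also has copies on 5 alternate contigs and is among the low genes around *CFB*, so its level may not be that of the RNA.

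Of the soluble regulators on the list 1 was tested, and it rose. *VTN* (chr17:28367276-28373091), encoding vitronectin, an inhibitor of pore formation, went from 5.26 ± 1.151 to 7.75 ± 0.907 CPM (SD, n = 3 each) with a log2 fold change of 0.55 (SE 0.143, edgeR adjusted p = 0.0339), and was not called without control replicate 1 (0.104) or 2 (0.0696), nor without replicate 2 (0.0865) or 3 (0.163) of 4-OHT ATII CM.

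None of 4 tested membrane regulators passed the test in edgeR, DESeq2 or limma-voom, and at an unadjusted p below 0.05 edgeR gave 1 higher and 1 lower. These proteins shield a cell's own surface. *CD59*, which blocks the pore, stood at 272 ± 3.35 and 259 ± 1.69 CPM (log2 fold change −0.07, SE 0.0313, edgeR adjusted p = 0.287). *CD46*, a cofactor of factor I, stood at 203 ± 0.153 and 216 ± 2.00 CPM (log2 fold change 0.08, SE 0.0320, edgeR adjusted p = 0.169). *CD55*, which dissociates convertases, stood at 46.9 ± 1.94 and 44.6 ± 1.24 CPM (log2 fold change −0.07, SE 0.0457, edgeR adjusted p = 0.465; SD, n = 3 for all). Among receptors *C1QBP* (chr17:5432777-5448830), encoding a mainly mitochondrial protein that binds C1q, fell from 98.4 ± 2.70 to 87.6 ± 2.41 CPM (SD, n = 3 each; log2 fold change −0.17, SE 0.0389, edgeR adjusted p = 0.0175). Its call was lost without control replicate 3 (edgeR adjusted p = 0.0564) and without replicate 2 (0.103) or 3 (0.0609) of 4-OHT ATII CM. *CALR* stood at 1779 ± 91.0 and 1774 ± 26.9 CPM (SD, n = 3 each; log2 fold change −0.004, SE 0.0328, edgeR adjusted p = 0.974).

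**Figure D4:**
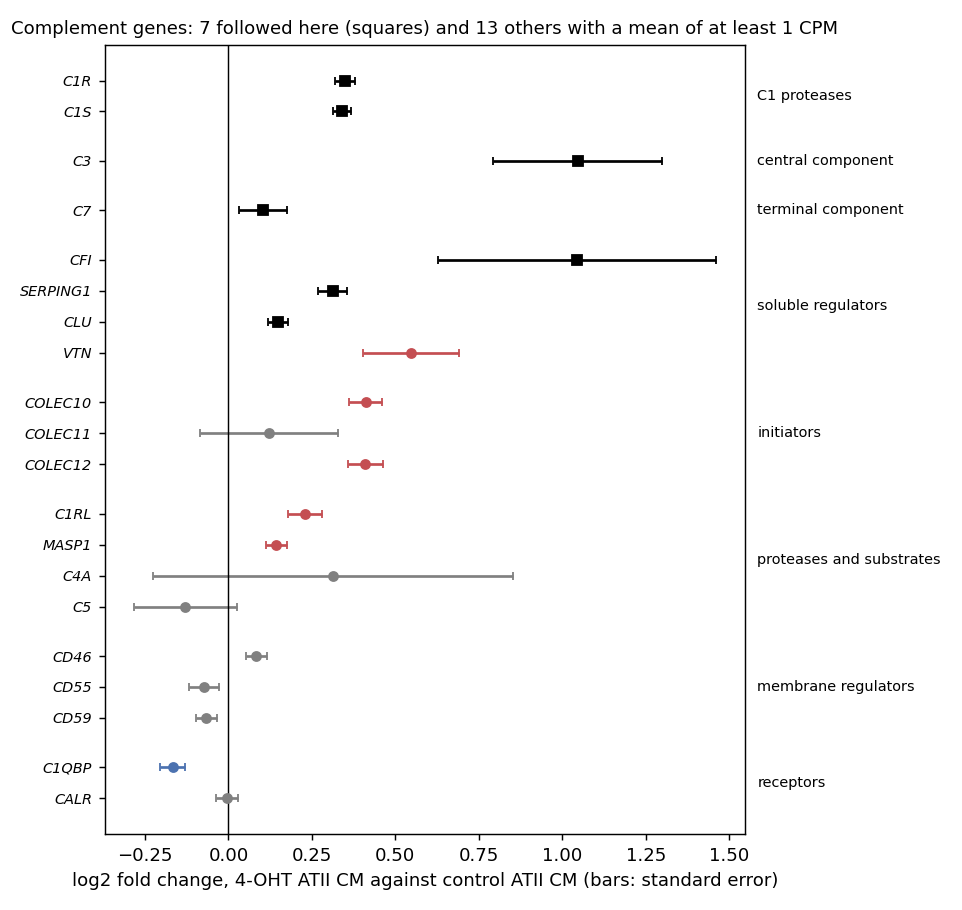
Log2 fold change with SE (x axis) of 4-OHT ATII CM against control ATII CM for the 7 measured genes (black squares) and 13 other complement genes with a mean of at least 1 CPM (circles; red, called higher; blue, called lower; grey, not called), grouped by role. *C3* and *CFI* have the largest values and the widest bars among the squares, 5 circles are red, and the membrane regulators lie on either side of 0.

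Genes known in other cells to act on complement gene transcription, 20 in all and all measured, were examined as a list. Of these 10 rose, beside 2.95% of all tested genes, 10 did not pass the test, and 17 of 20 had a log2 fold change above 0 (median 0.13), beside 49.5% of all tested genes. The number called higher fell to 6 without 4-OHT ATII CM replicate 2 and to 5 without replicate 3 of that group. Calls over all tested genes, in either direction, fell from 1090 to 533 and to 615 in these settings. The IL-1 receptor gene *IL1R1* rose most, from 202 ± 6.76 to 273 ± 1.93 CPM (SD, n = 3 each; log2 fold change 0.43, SE 0.0345, edgeR adjusted p = 3.15e-06). In the IL-6 receptor family, *IL6R* (log2 fold change 0.32, adjusted p = 0.00181), *IL6ST* (0.15, adjusted p = 0.00924) and *OSMR* (0.14, adjusted p = 0.0369) rose by edgeR. *STAT3*, the transcription factor downstream of those receptors, went from 274 ± 2.63 to 303 ± 6.88 CPM (log2 fold change 0.15, SE 0.0322, edgeR adjusted p = 0.0118), and its feedback inhibitor *SOCS3* from 91.0 ± 3.13 to 114 ± 1.92 CPM (log2 fold change 0.32, SE 0.0385, edgeR adjusted p = 0.000135; SD, n = 3 each). The *STAT3* call was lost without control replicate 3 (adjusted p = 0.0654) and without replicate 2 (0.0875) or 3 (0.059) of 4-OHT ATII CM. *OSMR* was lost without control replicate 3 (0.0951) and without replicate 1 (0.0927), 2 (0.128) or 3 (0.121) of 4-OHT ATII CM, and *IL6ST* without replicate 3 of 4-OHT ATII CM (0.0564).

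The interferon-linked factors *IRF1* (log2 fold change 0.28, adjusted p = 0.0011) and *IRF2* (0.22, adjusted p = 0.0211) also rose by edgeR. The *IRF2* call was lost without control replicate 1 (adjusted p = 0.0949) and without replicate 1 (0.0797), 2 (0.0708) or 3 (0.0549) of 4-OHT ATII CM. *IRF1* shares 22.0% of its exon length with the antisense *IRF1-AS1*, and the strand setting of the counting is not given in the sources used here. Of the C/EBP factors, *CEBPD* went from 176 ± 9.71 to 209 ± 3.44 CPM (SD, n = 3 each; log2 fold change 0.25, SE 0.0405, edgeR adjusted p = 0.00128) and *CEBPB* rose by a log2 fold change of 0.13 (edgeR adjusted p = 0.0377). The *CEBPB* call was lost in 7 of 14 alternatives, 5 of which left out 1 library (control replicate 1 or 3, or any 4-OHT ATII CM replicate). The others were edgeR with replicate number as a block (adjusted p = 0.0553) and edgeR with library totals alone (0.057). Over all 14 the adjusted p ranged from 0.00955 to 0.182. The receptor and kinase genes *IFNGR1* (log2 fold change 0.06, edgeR adjusted p = 0.627), *IFNGR2* (0.01, adjusted p = 0.96), *JAK1* (−0.004, adjusted p = 0.974) and *JAK2* (0.07, adjusted p = 0.687) of interferon and IL-6 signalling did not pass the test. The NF-kB genes *NFKB1* (log2 fold change 0.07, edgeR adjusted p = 0.444), *RELA* (−0.03, adjusted p = 0.798) and *NFKBIA* (0.13, adjusted p = 0.136) did not pass the test, and *NFKBIA* passed it without control replicate 2 (0.0294). Whether any of these genes bears on the complement genes was not tested.

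**Figure D5:**
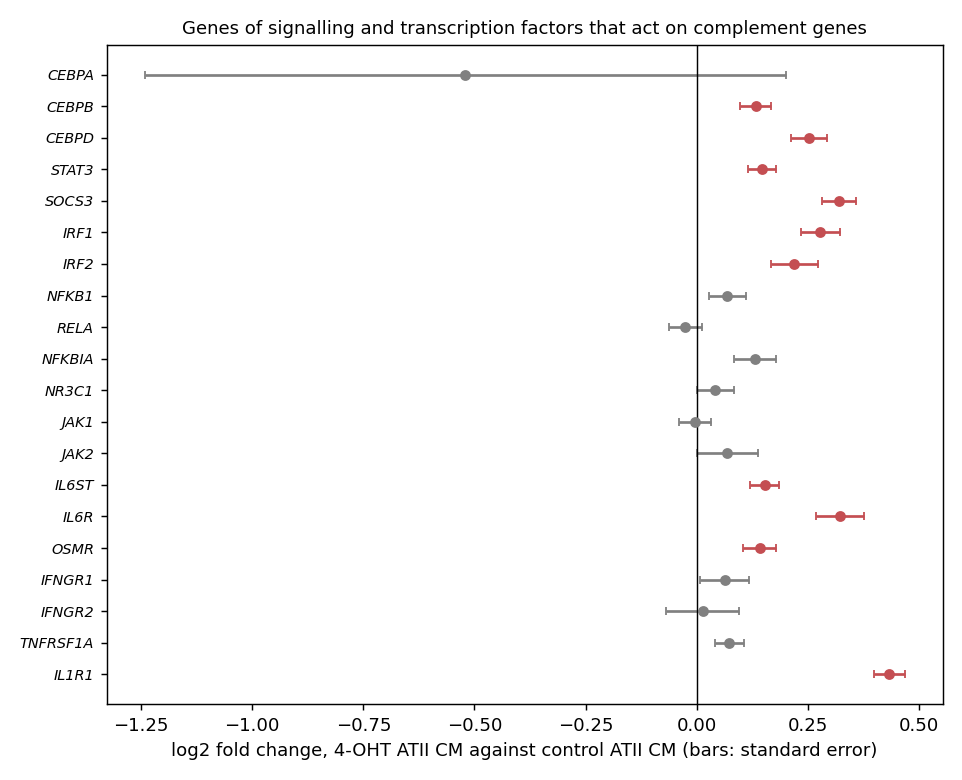
Log2 fold change with SE (x axis) of 4-OHT ATII CM against control ATII CM for 20 genes known to act on complement gene transcription (red, called higher; grey, not called). *IL1R1*, *IL6R* and *SOCS3* lie highest among the 10 called genes, at 0.43, 0.32 and 0.32, *NFKB1* and *RELA* lie near 0, and *CEBPA*, with 20 counts in all, has the widest bar.

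Genes beside the measured complement genes on the genome mostly did not pass the test. Within 50000 bases there were 51 genes, of which 26 were tested, 2 rose and 1 fell (beside 2.95% and 2.76% of all tested genes), with a median log2 fold change of 0.03. Apart from *C1RL*, *UBE2L6*, which encodes an enzyme that attaches the interferon-induced modifier ISG15 and lies 29103 bases from *SERPING1*, rose from 77.3 ± 2.58 to 90.7 ± 2.46 CPM (SD, n = 3 each; log2 fold change 0.23, SE 0.0400, edgeR adjusted p = 0.00243). *SCARA3*, 18837 bases from *CLU*, fell from 145 ± 3.97 to 130 ± 0.613 CPM (SD, n = 3 each; log2 fold change −0.15, SE 0.0357, edgeR adjusted p = 0.0185), and was not called without control replicate 1 (0.0704) or without replicate 1 (0.0759), 2 (0.0859) or 3 (0.0752) of 4-OHT ATII CM. *EMG1*, which overlaps *C1S*, had a log2 fold change of −0.06 (edgeR adjusted p = 0.682).

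Likeness of pattern was measured as the root mean square difference between genes in centred log2 CPM over the 6 libraries, among the 9202 genes whose mean reached 10 CPM, and is a description only. The 5 genes nearest *C1S* were *ADAMTS7* (0.0193), *ADGRG6* (0.0205), *ARHGAP28* (0.0230), *KLF9* (0.0244) and *STK38L* (0.0252), and they were also the nearest with a minimum of 1 CPM. *C1R* came at rank 9 (0.0270), *SERPING1* at 61 (0.0471), *CLU* at 555 (0.102) and *C7* at 1100 (0.123). *ADAMTS7*, a secreted metalloprotease gene, stood at 207 ± 5.21 and 256 ± 1.30 CPM (SD, n = 3 each). Nearest to *C3* were *ADH1B* (0.255), *TSPAN12* (0.282), *TSPAN11* (0.282), *CHL1* (0.284) and *FGL2* (0.285), all at a much greater distance. With a minimum of 1 CPM the genes nearest *C3* were instead *OTULINL* (0.149), *FMO2* (0.163), *BFAR* (0.205), *PDE1A* (0.211) and *CFTR* (0.229).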

How the data were processed

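Polyadenylated RNA of MRC5 fibroblasts was sequenced in 6 libraries (paired-end, NEBNext Ultra RNA kit). By the submitters' processing notes, the authors used Trim Galore, aligned to GRCh38 by HISAT2 2.1.0, counted by featureCounts 1.6.5 and deposited raw counts per gene without normalization. Annotation release, strand setting and treatment of reads with several matches are not given in the sources used here.

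The table held 58721 lines, of which 45 repeated identifiers were summed. No per-sample column was left unmapped. Names came from GENCODE 44, which names 18962 of the 19072 genes tested. Genes with at least 10 counts over all libraries were tested in edgeR 4.0.16 (R 4.3.3, TMM, quasi-likelihood F-test, group as the only term) with Benjamini-Hochberg adjustment over all tested genes. The SE of a log2 fold change was derived from that test, as its absolute value divided by the square root of F. The code was tested on simulated data. CPM were TMM-scaled, and patterns used log2 CPM with a prior count of 2. Alternatives were DESeq2 1.42.0, limma-voom 3.58.1, other scalings and filters, a replicate block and leaving out each library. Copies on 261 alternate contigs were found with minimap2 2.31.

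The 9 genes and all lists were chosen with earlier results of these data known. Named genes were the 9 genes, called genes of each list, the 5 other complement genes with the highest CPM, genes overlapping the 9 genes, cell type markers and the 5 genes most like *C1S* and *C3*. Membrane regulators, *C4A*, the genes around *CFB* and *CFD* and the regulators that were not called were named after their values were seen. Some genes and items were left out of the lists and are not reported here.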

Additional observations from a re-analysis of the deposited data

How the results depend on the processing

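Each count of calls was recomputed in 14 alternatives (8 of tool, scaling, filter or block and 6 that leave out 1 library). Leaving out a library moved the calls most. Of the 7 measured genes 3 to 5 were called higher. The other complement genes had 2 to 5 higher and 0 to 1 lower, the genomic neighbours of the 7 genes 1 to 3 higher and 0 to 1 lower, and the regulators 5 to 11 higher. Without 4-OHT ATII CM replicate 2 the counts were 3 of the 7 measured genes, 2 other complement genes (*C1RL*, *MASP1* and *VTN* lost) and 6 regulators. Of the 7 genes, *C3* and *CLU* were lost there, *C3* also without replicate 1 of either group and *CLU* also without control replicate 3. Without 4-OHT ATII CM replicate 3 the counts were 3 other complement genes (*MASP1* and *VTN* lost) and 5 regulators. Over all tested genes, calls in either direction fell from 1090 to 533 without 4-OHT ATII CM replicate 2 and to 615 without replicate 3 of that group. The median log2 fold change of the other complement genes was 0.083 and ranged from −0.016 (without that replicate 3) to 0.101 when 1 library was left out, was 0.00 by limma-voom and 0.14 with no filter on low counts. *C1QBP* was lost without control replicate 3 or 4-OHT ATII CM replicate 2 or 3. The call of *SCARA3* was lost without any of the 4-OHT ATII CM libraries or control replicate 1. The *C1R* to *C1S* ratio of group means was 0.798 per kilobase and 0.727 without division by length. No called gene changed direction. DESeq2 called 4 of the 7 measured genes, giving *C3* and *CFI* no adjusted p. The replicate block gave 5 of the 7 measured genes, 5 other complement genes higher and 1 lower, 2 neighbours higher and 1 lower, 9 regulators and 985 of all genes (1090 without it). The deviations of same-numbered libraries were not positively correlated (−0.0145, −0.104 and −0.0931 over 9691 genes), so the numbers were not taken to pair the libraries, although *C4A* counts were alike in same-numbered libraries. At the counts of *CFI* and *C3* small differences were not detectable.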
